A study of Homo sapiens with 2 samples.

Results

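SAMD9, SAMHD1, MX2, SP110 and TRANK1 are genes grouped here as intracellular antiviral factors whose transcripts were higher in HT1080 cells given an shRNA against cMyc. They were chosen by symbol: every probe set whose single gene symbol in the platform annotation is 1 of these 5 names. That gave 9 probe sets of the 53617 on each array, and 5 of the 14884 named genes. SAMD9, SAMHD1, MX2 and SP110 had 1 probe set each and TRANK1 had 5. HT1080 is an established human fibrosarcoma cell line, and 1 Affymetrix Human Gene 2.0 ST array was made per condition. One array read RNA of HT1080 cells that had received cMyc shRNA, and the other RNA of HT1080 cells that had received non-targeting control shRNA. Both cultures were infected with shRNA-carrying virus and harvested 48 hours later, per the labels' protocols, whereas the series' design text speaks of transfection. The labels name neither the hairpin sequence nor the number of hairpins. MYC itself, the target, had a level of 6.16 in cMyc shRNA cells and 7.09 in control shRNA cells, a log2 difference of -0.93.

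Interferons make cells transcribe a large set of genes, many of which block viruses at a defined step inside the cell. SAMHD1 cleaves deoxynucleoside triphosphates (dNTPs) and so starves reverse transcription, MX2 is a dynamin-like GTPase that acts on retroviral capsids near the nuclear pore, and SAMD9 restricts poxviruses. SP110 is a chromatin-associated protein of nuclear bodies, of the same family as SP100 and SP140. TRANK1 encodes a large protein with tetratricopeptide and ankyrin repeats, and no antiviral role is assigned to it here.

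All 5 genes were higher in cMyc shRNA cells, each by at least 4-fold, with a median log2 difference (cMyc shRNA minus control shRNA) of 3.46, or 11.0-fold. Over the 10258 named genes with a mean level at or above 3.70, the median of all probe sets, the median log2 difference was -0.012. Among those genes 2.01% were at least 2-fold and 0.458% at least 4-fold higher, while 4.0% were lower by 2-fold or more and 0.478% by 4-fold or more. The 5 genes were chosen with this contrast known, so their count is a description, and nothing follows from setting it against those shares. With 1 array per condition there is no spread between replicates, no test was made and no difference here has a replicate check. RNA came from whole cultures, so more cells with a transcript and more RNA per cell cannot be told apart. The only repeat reading is technical: over 416 genes with several probe sets, a single log2 difference had an SD of 0.336 between probe sets of 1 gene. Levels are log2 values as deposited, and levels of different genes are not compared.

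**Figure D1:**
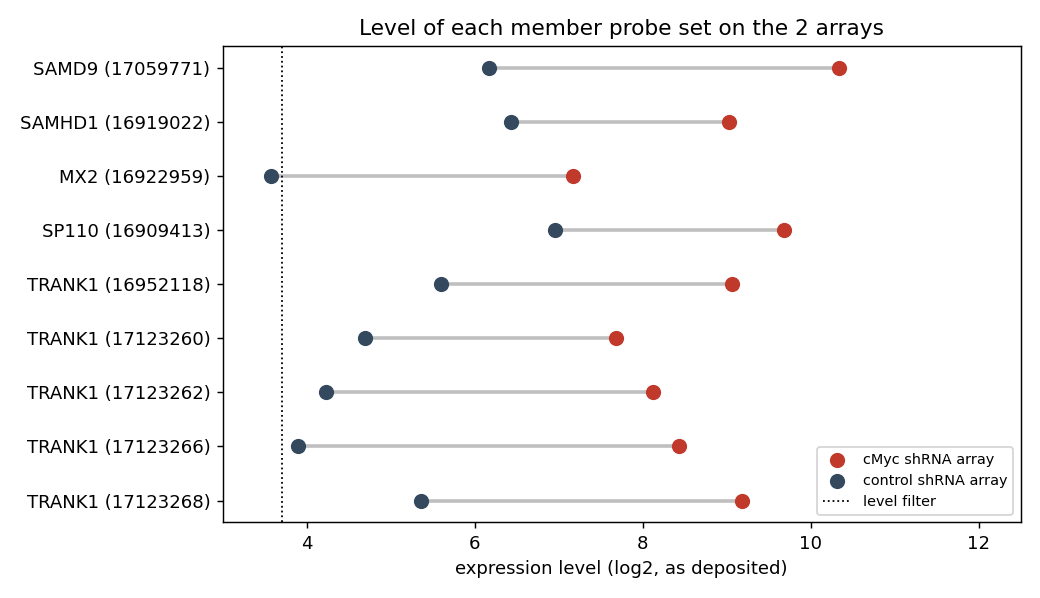
Level (log2, as deposited) of each of the 9 probe sets on the cMyc shRNA array and the control shRNA array, with the probe set number beside the gene and the level filter of 3.70 as a dotted line. Every cMyc shRNA point lies to the right of its control point, and only the control point of MX2, at 3.57, lies below the filter.

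SAMD9, a cytoplasmic protein with a sterile alpha motif (SAM) domain, had the largest difference of the 5 genes as each is read by its brightest probe set. Its level was 10.3 in cMyc shRNA cells and 6.17 in control shRNA cells, a log2 difference of 4.17, or 17.9-fold higher. Only 7 of the measured genes had a larger difference. SAMD9 lies on chromosome 7 beside its paralog SAMD9L, which is also an interferon-induced antiviral gene. SAMD9L had a level of 9.80 in cMyc shRNA cells and 6.29 in control shRNA cells, a log2 difference of 3.51 (11.4-fold). Both genes of the pair were thus far past 4-fold higher. Of the 19 measured genes in a list of other SAM domain genes, SAMD9L was the only one past 2-fold higher, 0 were past it on the lower side, and the median of the list was 0.15. Next in that list came SAMD12 at 0.87 and SAMD15 at 0.85. The control level of SAMD12, 3.49, is below the level filter. Lowest were SAMD4B, an RNA-binding translational repressor, at -0.94 and SARM1, an NAD-cleaving enzyme of axon degeneration, at -0.76.

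The sequence before the SAMD9 start is shown because it holds the core of the interferon-stimulated response element (GAAA, 2 bases of any kind, then GAAA) found at many interferon-induced genes. Sequences are from RefSeq (GRCh38.p14), in windows of 250 bases before and 50 bases after each annotated start, and both strands were searched. The table matched 4 of the 5 genes, SAMD9, SAMHD1, SP110 and TRANK1, with 5 windows, because SP110 has a pair of starts. A total of 35116 such windows were searched, and 3.57% of them hold this core. In SAMD9 the match runs from base -136 to base -127. The SAMD9L window does not hold it, but it holds the shorter AANNGAAA, the core bound by interferon regulatory factors (IRFs), from base -46 to base -39. The shorter core, which was added after the sequences were seen and overlaps the longer motif, occurs in 22.8% of the windows. Capitals mark the response element core in SAMD9 (chr7:93118030-93118139, minus strand) and AANNGAAA in SAMD9L (chr7:93148386-93148465, minus strand).
SAMD9: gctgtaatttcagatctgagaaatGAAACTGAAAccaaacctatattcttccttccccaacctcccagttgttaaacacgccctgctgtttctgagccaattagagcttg
SAMD9L: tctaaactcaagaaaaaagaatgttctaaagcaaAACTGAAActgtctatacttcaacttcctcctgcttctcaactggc
A match is a description of letters and shows no binding.

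MX2 had a level of 7.17 in cMyc shRNA cells and 3.57 in control shRNA cells, a log2 difference of 3.60, or 12.1-fold. Its control level lies below the level filter, so MX2 passed the filter only through the cMyc shRNA array, and with no detection call the size of its fold is uncertain. Of the measured genes 12 had a larger difference. The level of MX1, its neighbour and paralog, was not analysed here. Of the 3 start windows of MX1, 2 hold the response element core, from base -196 to base -187 in one and from base 12 to base 21 in another. Most related GTPases that were measured lay within 2-fold, and nearly all of these were dynamin-like genes rather than interferon-inducible ones. In a list of dynamin-like and interferon-inducible GTPases with 14 measured genes, 1 was past 2-fold higher and 0 past 2-fold lower, and their median was -0.20. The 1 was GBP3, a guanylate-binding protein, with a level of 9.09 in cMyc shRNA cells and 7.14 in control shRNA cells, a difference of 1.95. GBP3 was the only guanylate-binding protein among the measured genes. GBP4 (1.64) and GBP5 (0.52) had mean levels below the level filter. The mitochondrial fusion GTPase MFN1 had 0.46 and the fission GTPase DNM1L 0.21. The endocytic ATPases EHD3 and EHD4 were lowest, at -0.65 and -0.58.

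Partners of MX2 at the capsid and the nuclear pore lay within 2-fold as deposited. Of 11 measured genes 9 were below 0, with a median difference of -0.60, while 51.3% of all measured genes were below 0. The 5 measured housekeeping genes, PPIA among them, were all below 0 too, with a median of -0.76. NUP35, a nucleoporin of the inner ring, was lowest, with a level of 4.41 in cMyc shRNA cells and 5.39 in control shRNA cells (-0.98), and with the columns centred on their medians or after loess 1 gene of the list was past 2-fold lower. NUP88 had -0.76, the capsid-binding cyclophilin PPIA -0.76 and the import receptor KPNB1 -0.66. RANBP2, the cytoplasmic pore filament protein that incoming capsids meet, had 0.31, and TNPO3, an import receptor of splicing factors, had 0.15.

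SAMHD1 had the smallest difference of the 5 genes, with a level of 9.02 in cMyc shRNA cells and 6.43 in control shRNA cells. Its log2 difference was 2.59, or 6.02-fold, and 28 measured genes had a larger one. SAMHD1 is abundant in myeloid cells, so blood cell markers were read as well. Of 16 listed haematopoietic markers 10 were named and 7 measured, and 0 of the 7 were past 2-fold in either direction. Their log2 levels summed to 40.4 in cMyc shRNA cells and 40.6 in control shRNA cells. CD14, a monocyte marker, had a level of 3.22 in cMyc shRNA cells and 3.53 in control shRNA cells, and LYZ, lysozyme, 2.89 in cMyc shRNA cells and 2.84 in control shRNA cells, both below the median of their array. CD14 and LYZ also had mean levels below the level filter, whereas all 7 measured markers lay above the median of each array. With no detection call, a level above the median does not show that a marker is expressed. CD4 had 3.78 in cMyc shRNA cells and 3.74 in control shRNA cells, just above the medians of 3.73 and 3.68. Of the measured markers, the lysosomal protein CD68 had the highest difference, 0.91, with a level of 11.3 in cMyc shRNA cells and 10.4 in control shRNA cells. The macrophage growth factor receptor CSF1R (-0.81) and LAPTM5 (-0.55) had the lowest differences. CSF1R had a level of 5.34 in cMyc shRNA cells and 6.15 in control shRNA cells, and LAPTM5 5.18 in cMyc shRNA cells and 5.74 in control shRNA cells. Of the mesenchymal markers that fit a fibrosarcoma line, FN1 (fibronectin) had a level of 12.6 in cMyc shRNA cells and 12.4 in control shRNA cells, and VIM (vimentin) had 9.34 in cMyc shRNA cells and 9.94 in control shRNA cells. Of the 12 listed mesenchymal markers 6 were named. LOX had 8.71 in cMyc shRNA cells and 8.51 in control shRNA cells. THY1 had 4.86 in cMyc shRNA cells and 4.50 in control shRNA cells, and TAGLN 4.54 in cMyc shRNA cells and 5.265 in control shRNA cells. S100A4 was below the level filter, with 3.395 in cMyc shRNA cells and 3.06 in control shRNA cells.

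Among genes of dNTP supply and salvage, the pathway that SAMHD1 drains, those past 2-fold were all lower in cMyc shRNA cells. In a list of dNTP supply and salvage genes with 14 measured members, 13 were below 0, 5 of these by 2-fold or more. In that list 0 were past 2-fold higher, and the median was -0.72. Over all measured genes 51.3% were below 0 and 4.0% were past 2-fold lower. The 5 measured housekeeping genes were all below 0, 2 of them past 2-fold lower, and their median of -0.76 was no higher than that of the dNTP list. RRM2, the small subunit of ribonucleotide reductase, had a level of 5.72 in cMyc shRNA cells and 7.97 in control shRNA cells (-2.25). Cytidine deaminase CDA had -1.69, thymidylate synthase TYMS -1.64, the large reductase subunit RRM1 -1.50 and the thymidylate kinase DTYMK -1.25. The exception above 0 was RRM2B, the reductase subunit used outside S phase and induced by p53, with a level of 7.84 in cMyc shRNA cells and 7.49 in control shRNA cells (0.35). A member at 0.35 lies about 1 technical SD from 0.

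SAMHD1 is switched by phosphorylation in cycling cells, carried out by cyclin A2 with CDK1 or CDK2. Of 12 measured genes in a list of cyclins and kinases around that step, 6 were past 2-fold lower and 1 past 2-fold higher, and the median was -1.004. CCNA2 had a level of 7.14 in cMyc shRNA cells and 9.52 in control shRNA cells, a log2 difference of -2.37. CDK1 had a level of 4.98 in cMyc shRNA cells and 7.23 in control shRNA cells (-2.26), and CDK2 differed by -1.08. They are the cyclin and the kinases of that step. CCNB1 (-2.38), CCNB2 (-1.998) and CCNE2 (-1.29) were the other genes past 2-fold lower. CDK6, which acts with D cyclins earlier in G1, was the gene past 2-fold higher, at 1.17, and the D cyclins CCND1 (-0.38), CCND2 (-0.23) and CCND3 (-0.08) lay within 2-fold. The array reads transcripts, and SAMHD1 phosphorylation was not measured. These list genes are cell cycle genes, and whether their lower levels and the higher SAMHD1 level are linked was not tested.

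**Figure D2:**
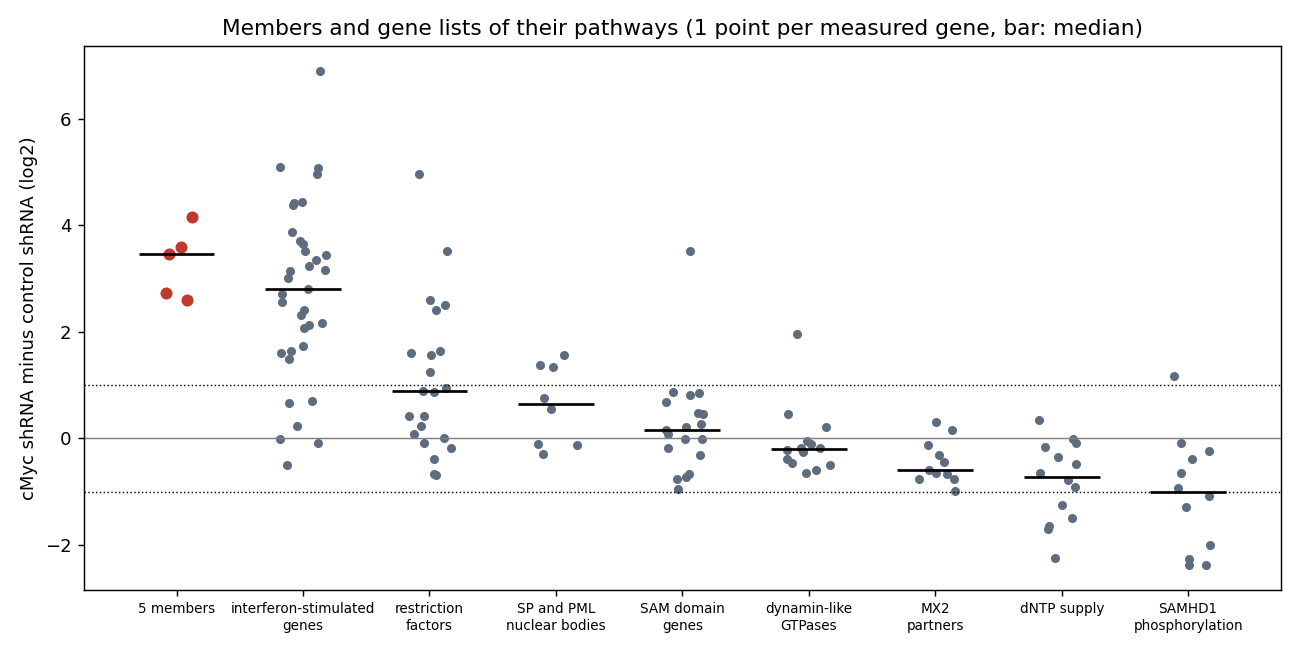
Log2 difference (cMyc shRNA minus control shRNA) of the 5 genes and of the measured genes in 8 lists, 1 point per gene, with the median as a bar and 2-fold as dotted lines. The 5 genes lie between 2.59 and 4.17, the interferon-stimulated list has a median of 2.80, and the dNTP and SAMHD1 phosphorylation lists have medians of -0.72 and -1.004.

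SP110 had a level of 9.69 in cMyc shRNA cells and 6.96 in control shRNA cells, a log2 difference of 2.73, or 6.63-fold, and 24 measured genes had a larger one. SP110, SP140, SP140L and SP100 follow each other on chromosome 2, and all 4 were above 0. SP100, a core nuclear body protein, had a level of 9.17 in cMyc shRNA cells and 7.60 in control shRNA cells (1.57). SP140L had a level of 7.47 in cMyc shRNA cells and 6.09 in control shRNA cells (1.37), and SP140 6.45 in cMyc shRNA cells and 5.69 in control shRNA cells (0.76). SP140L shares closely similar stretches with SP140 and SP100, so the array may not separate their signals fully. Of the 8 measured genes of the SP and PML nuclear body list, which leaves SP110 out, 3 were past 2-fold higher and 0 past 2-fold lower, and the median was 0.65. PML, the scaffold of PML bodies, had a level of 7.99 in cMyc shRNA cells and 6.64 in control shRNA cells (1.35). The chromatin factors that reside in those bodies lay nearer 0, with ATRX at 0.55 and DAXX at -0.13, as did the kinase HIPK2 at -0.11 and the modifier SUMO2 at -0.30.

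The starts of the SP genes are shown because they share a run of 16 letters. SP110 has 2 annotated starts, and neither window holds the response element core, but each holds AANNGAAA at 2 overlapping places. These places lie within the run GAAAAGAAAAGTGAAA, read as TTTCACTTTTCTTTTC on the other strand. The run was found after the sequences were seen. It occurs in 4 of the 35116 windows, and those belong to SP110 (both starts), SP140 and SP140L. The SP140 match and that of the upstream SP110 start are the same bases (chr2:230225726-230225741), because the genes start close together on opposite strands, so there are 3 distinct sites. Within SP100, the stretch closest to the run has 1 substitution, T9C, counted from 1 at the 5′ end of TTTCACTTTTCTTTTC, with the run's base first. Only the bases before the SP100 starts were searched with mismatches allowed, so other genes may hold stretches as close. Capitals mark the run or, in SP100, its closest stretch. The windows are chr2:230225667-230225756 (minus strand) for the upstream SP110 start, chr2:230219985-230220074 (minus strand) for the downstream one, chr2:230327063-230327152 (plus strand) for SP140L and chr2:230416062-230416172 (plus strand) for SP100.
SP110 upstream start: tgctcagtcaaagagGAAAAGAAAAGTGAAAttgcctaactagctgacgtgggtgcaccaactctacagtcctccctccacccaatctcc
SP110 downstream start: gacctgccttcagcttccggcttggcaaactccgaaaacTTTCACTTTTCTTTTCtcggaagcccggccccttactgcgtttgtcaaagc
SP140L: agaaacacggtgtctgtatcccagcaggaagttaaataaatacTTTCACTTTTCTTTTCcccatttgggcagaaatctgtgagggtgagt
SP100: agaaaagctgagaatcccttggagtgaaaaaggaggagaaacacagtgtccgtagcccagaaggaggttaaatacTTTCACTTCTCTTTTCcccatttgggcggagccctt
SP genes are related by duplication, and use of the run in these cells was not measured.

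TRANK1 was read by 5 probe sets, the only gene of the group with a repeat reading. Probe set 16952118 had a level of 9.06 in cMyc shRNA cells and 5.60 in control shRNA cells. Probe set 17123260 had 7.68 in cMyc shRNA cells and 4.69 in control shRNA cells. Probe set 17123262 had 8.13 in cMyc shRNA cells and 4.23 in control shRNA cells. All of these are higher in cMyc shRNA cells. Probe set 17123266 had 8.43 in cMyc shRNA cells and 3.89 in control shRNA cells, the lowest control level of the 5. Probe set 17123268 had 9.18 in cMyc shRNA cells and 5.36 in control shRNA cells. The 5 log2 differences ran from 2.99 to 4.54, or from 7.95-fold to 23.3-fold, with a mean of 3.74 ± 0.57 (SD over 5 probe sets of the same 2 arrays). They agree in direction and differ in size by 1.55, and they may share probes, since the same transcript accession stands for all of them.

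The TRANK1 window is shown because it holds CACGTG, the E-box bound by MYC and MAX among other factors, from base -41 to base -36. It holds neither the response element core nor AANNGAAA. CACGTG occurs in 7.26% of the 35116 windows and in no window of SAMD9, SAMHD1 or SP110. The SAMHD1 window holds none of these motifs. No match says only that these letters are not in this window. Capitals mark CACGTG (chr3:36945055-36945144, minus strand).
TRANK1: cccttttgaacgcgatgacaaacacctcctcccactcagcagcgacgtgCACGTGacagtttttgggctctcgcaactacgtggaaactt
Binding of MYC was not measured in these cells.

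Read by the brightest probe set, the differences ran in the order SAMD9, MX2, TRANK1, SP110 and SAMHD1. The place of MX2 rests on a control level below the filter, and TRANK1 comes above MX2 when the mean of its probe sets (3.74) stands for it. The gaps between neighbours in this order were 0.56 between SAMD9 and MX2, 0.14 between MX2 and TRANK1, 0.73 between TRANK1 and SP110, and 0.14 between SP110 and SAMHD1. None of these 4 gaps exceeded 2 technical SDs of a gap between genes (0.475 each, from the spread between probe sets over all genes). Of all 10 pairs 3 exceeded it, SAMD9 over SAMHD1 (1.58), SAMD9 over SP110 (1.44) and MX2 over SAMHD1 (1.01). The SD between the probe sets of TRANK1, 0.57, was wider than the 0.336 behind the figure of 0.475. The whole range over the 5 genes, 1.58, was close to the range of 1.55 over the probe sets of TRANK1 alone, so the order is given as a description.

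**Figure D3:**
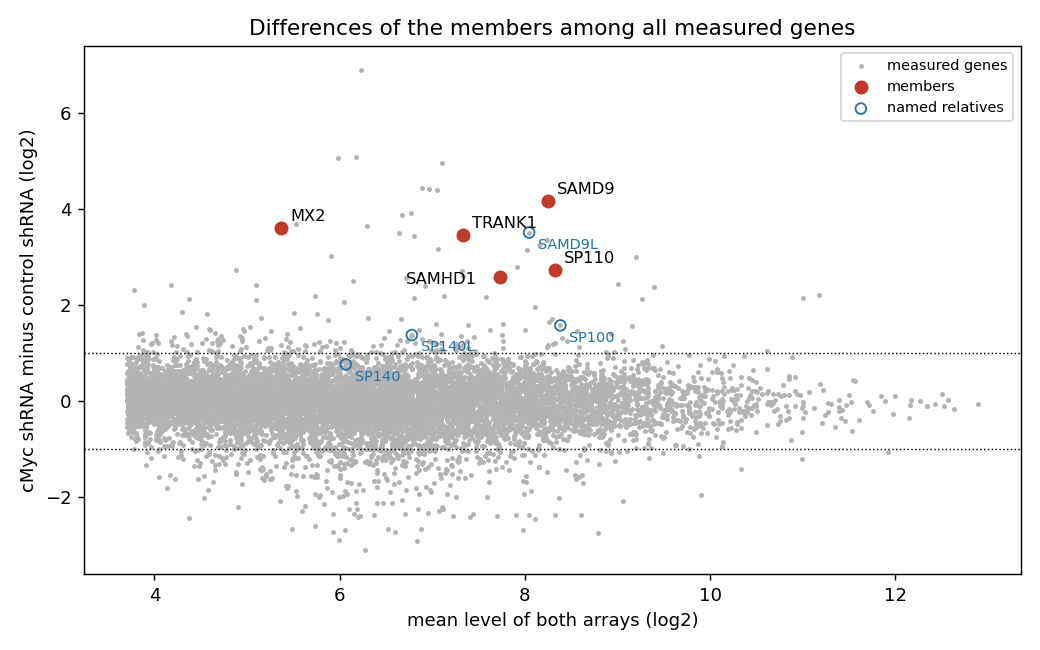
Log2 difference (cMyc shRNA minus control shRNA) against the mean level of both arrays for the 10258 measured genes, with the 5 genes in red, their named relatives ringed in blue and 2-fold as dotted lines. SAMD9 (4.17) and MX2 (3.60) are the highest of the 5, and SP100 (1.57), SP140L (1.37) and SP140 (0.76) lie below SP110 (2.73).

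Of the 10 genes whose log2 difference lay nearest to each of the 5 over these 2 arrays, 6 belonged to the list of interferon-stimulated genes. Among all 42 other measured genes at least 4-fold higher, 25 belonged to it. Of the 10258 measured genes 35 are in that list, which was chosen with earlier results of these data known. The 5 genes were chosen with this contrast known, so genes near them in it are high as well. The count of 6 therefore adds nothing to the 25 of 42. Some of the 25, IFIT1 among them, passed the level filter only through the cMyc shRNA array. Nearest to SAMD9 were USP18, the protease that removes ISG15, at 4.39, and EGR1, an immediate early transcription factor, at 3.93. Nearest to MX2 were XAF1 (3.65) and SAMD9L (3.51). Nearest to TRANK1 were DDX60L (3.43) and TLR3, the endosomal sensor of double-stranded RNA (3.51). Nearest to SP110 were TMEM140, a transmembrane protein gene, at 2.73 and the scramblase PLSCR1 at 2.72. The control level of TMEM140, 3.51, is below the level filter. Nearest to SAMHD1 were SHFL, an inhibitor of ribosomal frameshifting, at 2.60 and IRF9, an interferon regulatory factor, at 2.57. Likeness here is a single difference per gene, so many genes can be alike without sharing more.

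Other restriction factors ranged from far past 2-fold higher to below 0. Of 22 measured genes in a list without the 5, 9 were past 2-fold higher and 0 past 2-fold lower, and the median was 0.89. RSAD2 (viperin), which makes a chain-terminating nucleotide, was highest at 4.96, followed by SAMD9L, SHFL and HELZ2 (2.51), a helicase. TRIM5, a capsid-binding ubiquitin ligase, had a level of 6.52 in cMyc shRNA cells and 5.28 in control shRNA cells (1.24). Like MX2, it acts on retroviral capsids, and it was named after its value was seen. The endonuclease gene SLFN11 had -0.69 and the corepressor TRIM28, which silences retroelements, -0.66, with SMC6 at -0.38 and MORC2 at -0.17. The level of SLFN11 in cMyc shRNA cells, 3.55, is below the level filter. In the list of interferon-stimulated genes without the 5, 29 of 35 measured genes were past 2-fold higher, 0 past 2-fold lower, and the median was 2.80. IFIT1, IFIT2, IFIH1, HERC5, BST2 and IFI44L had control levels below the level filter and passed it only through the cMyc shRNA array. The sizes of their folds are uncertain. RSAD2, SAMD9L, BST2, TRIM21, TRIM22 and ISG20 are in this list and in the restriction factor list, so the counts of the lists overlap. With no level filter, 29 of the 36 named genes of the interferon-stimulated list were past 2-fold higher, and the median was 2.76. In the list of interferon signalling genes, 2 of 15 measured genes (USP18 and IRF9) were past 2-fold higher and 0 past 2-fold lower, with a median of 0.23, the kinase JAK2 at 0.82 and the feedback inhibitor SOCS3 at -0.42. Both USP18 and IRF9 are in the interferon-stimulated list too. No interferon gene was among those measured, so ligand levels were not analysed here.

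The genes beside each of the 5 on the chromosome were read to see whether whole neighbourhoods differed. For each gene the 5 nearest measured named genes on either side were taken, in the order of the RefSeq assembly GRCh38.p14. Beside SAMHD1 on chromosome 20, 0 of 10 were past 2-fold higher and 1 past 2-fold lower, and the median was 0.013. The lower one was RBL1, the pocket protein p107 that sits next to SAMHD1, with a level of 6.06 in cMyc shRNA cells and 7.32 in control shRNA cells (-1.26). Beside TRANK1 on chromosome 3, 0 of 10 were higher past 2-fold and 1 lower, STAC at -1.38, with a median of -0.26. Beside MX2 on chromosome 21, 1 of 10 was higher past 2-fold, the kinase RIPK4 at 1.27, and the median was -0.088. MX1, the neighbour and paralog of MX2, was not analysed and is not among these 10. RIPK4 had a level of 4.51 in cMyc shRNA cells and 3.25 in control shRNA cells, and its control level is below the level filter. Of the genes read, those beside SAMD9 and SP110 lay higher, and they include paralogs of these 2 genes. Beside SAMD9 2 of 10 were past 2-fold higher, SAMD9L and CDK6, and 1 lower, PEG10 at -1.29, with a median of 0.70. Beside SP110 2 of 10 were past 2-fold higher, SP100 and SP140L, and 0 lower, with a median of 0.54.

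**Figure D4:**
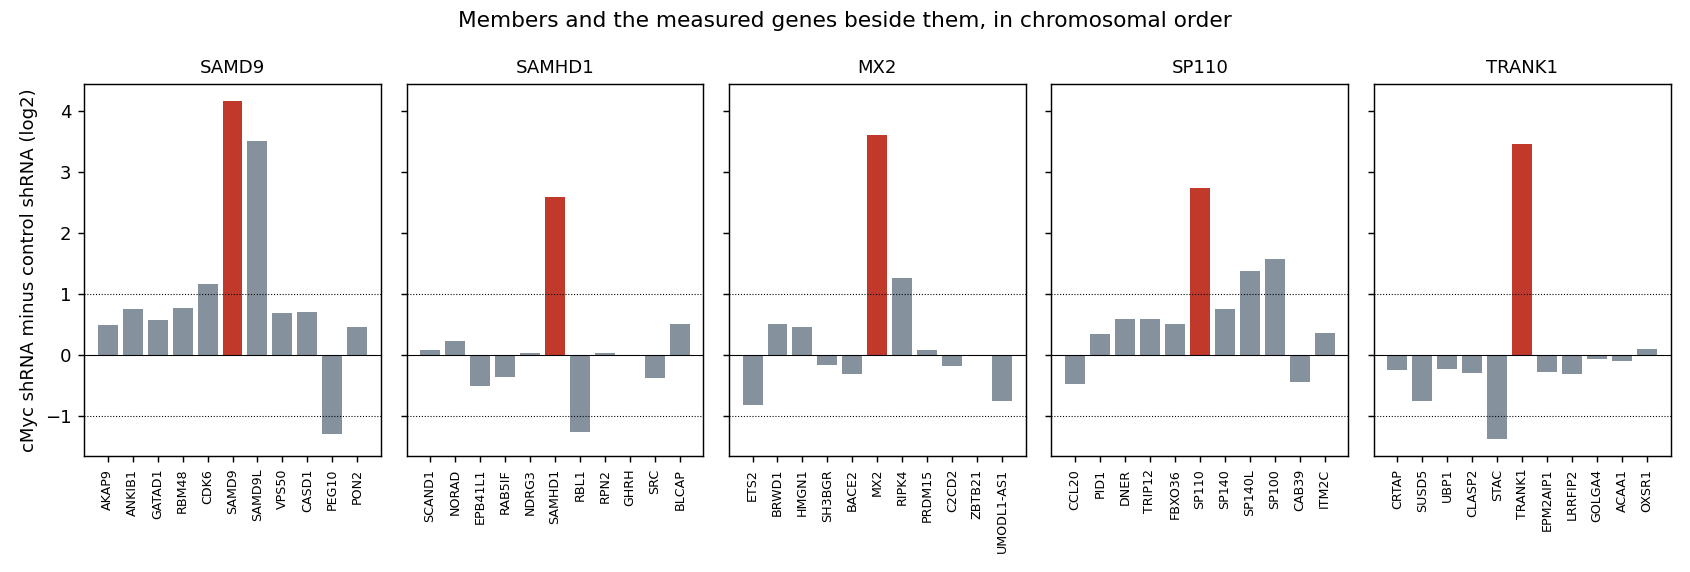
Log2 difference (cMyc shRNA minus control shRNA) of each of the 5 genes (red bar) and of the 5 measured named genes on either side of it (grey bars), in chromosomal order and not to distance. The red bar is the highest in each panel, the bar of SAMD9L (3.51) stands beside that of SAMD9, and RBL1 (-1.26) beside SAMHD1 lies below 0. MX1, the neighbour of MX2, is not drawn.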

How the data were processed

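The deposited log2 levels cover 53617 probe sets on 2 arrays and lie between 1.41 and 13.9, with medians of 3.73 (cMyc shRNA) and 3.68 (control shRNA). The base of the log was inferred from this range. The values were made with Affymetrix Expression Console, per the submitters' processing notes; how they were normalized and summarized is not stated there, and the number of arrays limits the precision. Symbols came from GEO's platform annotation (16098 probe sets with 1 symbol), and all were current in RefSeq GRCh38.p14. A gene was read by its brightest probe set, counted as measured at a mean level of 3.70 or more, and called past a fixed size of 2-fold. Named genes were the 5 genes with all probe sets, MYC, the 2 genes nearest to each in difference, up to 4 at either end of each list and the SP, MX2 and SAMHD1 partner lists. Flanking genes and others were chosen after their values were seen. The members and lists were chosen with earlier results of these data known. Matches of 1 further motif are not reported here. The alternatives were 3 scalings, 2 level filters, another probe set rule and 2 fold sizes. Calculations used pandas 2.3.3 and numpy 2.4.6 in Python 3.11.15, with loess from statsmodels 0.14.6, and the steps were tested on simulated data.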

Additional observations from a re-analysis of the deposited data

How the results depend on the processing

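The 5 genes and MYC kept their direction and moved by less than the technical SD of 0.336 under all 3 scalings and with the mean over probe sets. Much of this was set in advance. The sorted levels of the 2 arrays differed by at most 0.116, so median centring and quantile normalization could not move a difference by that SD. SAMD9, SAMHD1, MX2 and SP110 have 1 probe set each, so the mean over probe sets could not move them. TRANK1 had 3.74 with the mean of its probe sets. At least 2-fold higher were all 5 genes under every alternative but a filter at the 75th percentile of level, which MX2 does not pass, leaving 4. The count of measured genes moved with the size rule by construction, to 900 higher against 1224 lower for a rule of 1.5-fold and 47 against 49 for 4-fold. The 75th percentile filter, which keeps fewer genes, gave 126 higher and an interferon-stimulated list median of 3.17. The MX2 partner list had 1 gene past 2-fold lower with centred columns and 1 with loess. The housekeeping list, with 5 measured genes and a median of -0.76, had 2 past 2-fold lower as deposited, against 1 after quantile normalization and 1 after loess. With no level filter the GTPase list had 2 genes higher, the added one being GBP4. With AANNGAAA, chosen after the sequences were seen, 3 of the 5 start windows, which belong to 4 of the genes, held an interferon motif, against 1 with the longer response element core. The causes of these shifts were not tested beyond construction. No paired analysis was possible because each condition has 1 array. Low control levels limit the folds of MX2, of TRANK1 probe set 17123266 and of interferon-stimulated list genes such as IFIT1.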

Other observations

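Of the 4 epithelial markers measured, 0 were past 2-fold in either direction, with KRT18 at -0.69 and CLDN7 at 0.53. Endothelial markers PECAM1 and VWF had mean levels below the filter. Of 5 measured mesenchymal markers 0 were past 2-fold.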
